A study of Mus musculus with 9 samples.

Results

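The hematopoietic growth factor receptors examined here are 8 genes, chosen by their symbols in the table of gene values: Flt3, Kit, Csf2ra, Csf2rb, Csf2rb2, Il3ra, Csf3r and Epor. Each symbol had a single row among the 54532 genes listed, and all 8 genes passed the filter on low values that left 12746 genes for testing. Their expression was compared by bulk RNA-seq among mature conventional dendritic cells (DCs) of normal mouse spleen (N-mDCs), CD11c+ MHCII-low cells of the spleen of mice with T-cell acute lymphoblastic leukemia (T-DCs), and mature conventional DCs of such leukemic spleens (T-mDCs). There were 3 samples in each group. N-mDC donors received no treatment. Leukemia was started with c-kit+ bone marrow cells given a retrovirus that carries ICN1, the active intracellular form of Notch1, together with GFP, and GFP+ leukemia cells were then transferred into mice that were not irradiated. Mice were C57BL/6J or C57B6.SJL females of 6 to 8 weeks, and cells were taken 15 days after transfer, following lysis of red blood cells and enrichment on CD11c. Low surface MHCII was a criterion of the T-DC sort. Whether a sample came from 1 mouse or from several was not given in the sources used here, and p-values measure only the spread between these samples.

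Growth factor receptors pass the signal of secreted cytokines into blood cells and their precursors, and each is used by a limited set of lineages. FLT3 and KIT are receptor tyrosine kinases that bind FLT3 ligand and stem cell factor. The other 6 genes encode cytokine receptor chains with no kinase of their own, which work through bound Janus kinases, above all JAK2, and through STAT5. FLT3 ligand is the main cytokine for the development of conventional and plasmacytoid DCs, GM-CSF acts on DCs and other myeloid cells, G-CSF acts on granulocytes, and erythropoietin acts on red cell precursors.

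T-DCs expressed lower levels of Flt3 and Kit than either group of mature DCs, and lower levels of Csf2rb2, the IL-3 specific beta chain, than N-mDCs. Epor was higher in T-DCs than in T-mDCs, with most of its signal in T-DC samples 2 and 3. Levels of Csf2ra, Csf2rb, Il3ra and Csf3r did not pass the test in any of the 3 comparisons. T-DCs against N-mDCs gave 3 of 8 receptors past the threshold, all lower, beside 16.4% of all genes tested called in either direction, 6.1% called higher and 10.3% called lower (limma, adjusted p under 0.05). Against T-mDCs, 3 of 8 receptors were called, with Epor higher and Flt3 and Kit lower, beside 14.2% of all genes in either direction, 5.44% higher and 8.79% lower. Between T-mDCs and N-mDCs, limma called 0 of 8 receptors, with 1 at an unadjusted p under 0.05 and 0 called by limma voom on recovered reads, beside 2.21% of all genes. The F-test over the 3 groups called Flt3, Kit, Epor and Csf2rb2, that is 4 of 8 receptors beside 18% of all genes. Samples of T-DCs and N-mDCs did not overlap for 3 of 8 receptors, all lower in T-DCs, beside 32.4% of all genes, 16% with T-DCs higher and 16.4% with T-DCs lower. For T-DCs and T-mDCs this held for 5 of 8, with Epor higher and 4 lower, beside 34.9% of all genes, 16.8% higher and 18.1% lower. For the mature groups it held for Csf2ra, Csf3r and Epor, all lower in T-mDCs, beside 35% of all genes, 19.3% higher and 15.7% lower. The median log2 fold change of the 8 receptors was -0.68 for T-DCs against N-mDCs and -0.59 against T-mDCs, where the medians of all genes tested were 0.05 and 0.07.

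Values are FPKM, which give the reads of a gene for each kilobase of its listed length, scaled by a size set for each library. The libraries held between 15360815 and 18440913 reads on genes, and between 34 and 10341 reads stood behind each receptor value. Red cell genes set T-DC samples 2 and 3 apart. The summed FPKM of 14 erythroid markers was 59280 and 43600 in those samples, against 622 in T-DC sample 1, 100 to 5372 in N-mDCs and 15.7 to 185 in T-mDCs. A list of 10 neutrophil markers summed to 4257 and 1494 in T-DC samples 2 and 3 and to 16.4 in T-DC sample 1. The DC labels were checked on Itgax, which encodes CD11c, and Zbtb46, a transcription factor of conventional DCs. Itgax was 158 to 230 FPKM in the 6 mature DC samples and 152, 90.4 and 43.0 in T-DC samples 1 to 3. Zbtb46 was 10.7 to 23.5 in mature DCs and 1.84 to 3.42 in T-DCs. T-mDC samples 2 and 3 were closer to each other than other samples of a group were, with a chi-square per gene of 1.8 over genes with 20 to 200 reads, against 5.45 to 19.0 for the other pairs. The receptors and the lists of markers and signalling genes whose calls changed with both taken as 1 sample are given with that setting.

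**Figure D1:**
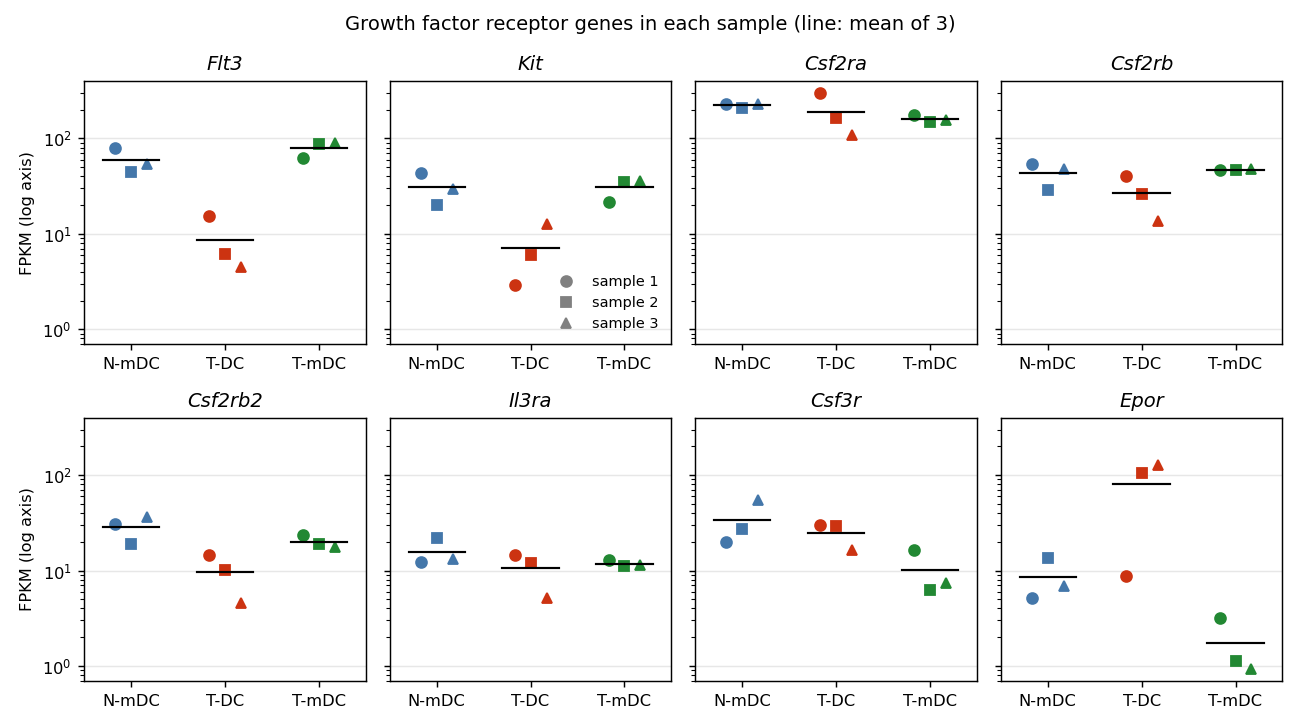
FPKM (log axis) of each of the 8 receptor genes in the 3 samples of each group, where each point is a sample, its shape gives the sample number, and lines are means of 3. Flt3 lies lower in every T-DC sample than in any mature DC sample, while Epor is at 104 and 126 FPKM in T-DC samples 2 and 3 and at 8.67 in T-DC sample 1.

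Flt3 (ENSMUSG00000042817, chr5:147330741-147400489, minus strand, mm10) encodes the receptor for FLT3 ligand. Its level was 78.8, 44.4 and 54.3 FPKM in samples 1 to 3 of N-mDCs, 15.4, 6.11 and 4.48 in those of T-DCs, and 62.9, 86.6 and 89.1 in those of T-mDCs. Every T-DC sample was under the lowest mature DC sample, and N-mDCs and T-mDCs overlapped. Mean levels of the N-mDC, T-DC and T-mDC groups were 59.2 ± 17.7, 8.66 ± 5.88 and 79.5 ± 14.5 FPKM (SD, n = 3). On the log2 scale of FPKM + 1, T-DCs differed from N-mDCs by -2.76 (SE 0.40, adjusted p = 0.00375, limma) and from T-mDCs by -3.21 (SE 0.40, adjusted p = 0.00256), with 3 of 3 samples lower in both. The difference between T-mDCs and N-mDCs was 0.44 on the log2 scale, with a 95% interval of -0.47 to 1.36 (adjusted p = 0.622, limma). Both Flt3 calls were kept in 20 of 20 alternative settings. With T-DC sample 1, the sample with the low erythroid sum, as the only T-DC sample, the value was -1.84 relative to N-mDCs and -2.28 relative to T-mDCs (adjusted p = 0.0383 and 0.0386, limma), where the lone sample is assumed to vary like the other groups.

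Most markers of the conventional DC subsets were lower in T-DCs, as Flt3 was. Of 8 markers of cDC1, the DC subset that presents antigen to CD8+ T cells, T-DCs expressed 5 at lower levels than N-mDCs did and 8 at lower levels than T-mDCs did. Their summed FPKM was 196, 86.1 and 48.6 in T-DC samples 1 to 3, 315 to 406 in N-mDCs and 421 to 627 in T-mDCs. Of 7 markers of cDC2, the subset that presents antigen mainly to CD4+ T cells, 6 and 5 were lower in the same comparisons. Their sums were 419 to 459 in N-mDCs, 431, 200 and 112 in T-DC samples 1 to 3, and 252 to 318 in T-mDCs. These counts of cDC1 and cDC2 markers stand beside 10.3% of all genes called lower against N-mDCs and 8.79% against T-mDCs. Unlike Flt3, the cDC2 sum was lower in every T-mDC sample than in any N-mDC sample. In T-DC sample 1 the cDC2 sum was within the range of N-mDCs because of Sirpa alone, which made up 404 of the 431 FPKM. Sirpa had its highest value of the 9 samples there. Every other cDC2 marker was lower in T-DC sample 1 than in all N-mDC samples. Cd209a was 4.06 against 67.1 to 84.8 FPKM, and Irf4 was 2.31 against 39.6 to 55.3. With T-mDC samples 2 and 3 taken as 1 sample, 4 and 4 cDC1 markers and 6 and 3 cDC2 markers were called lower (limma). In that setting 990 and 455 of 12746 genes were called lower. None of the defining cDC1 markers was at 0 in T-DCs, where Clec9a was 11.4, 4.51 and 2.80 FPKM and Xcr1 was 6.81, 1.96 and 1.02 in samples 1 to 3. In bulk RNA, fewer cells of a type and less RNA per cell cannot be told apart, and the part of these markers in the Flt3 result was not tested.

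Kit (ENSMUSG00000005672, chr5:75574916-75656722, plus strand) encodes the receptor for stem cell factor and is best known on hematopoietic stem and progenitor cells and on mast cells. It was listed at 43.3, 19.9 and 29.6 FPKM in samples 1 to 3 of N-mDCs, at 2.91, 5.97 and 12.6 in those of T-DCs, and at 21.7, 35.4 and 35.5 in those of T-mDCs. T-DCs were again lower than all mature DC samples, and the mature groups overlapped. Within T-DCs the order was opposite to that of Flt3, with T-DC sample 3 highest for Kit and lowest for Flt3. Over the N-mDC, T-DC and T-mDC groups, Kit averaged 30.9 ± 11.7, 7.15 ± 4.94 and 30.9 ± 7.90 FPKM (SD, n = 3). Against N-mDCs, T-DCs gave a log2 fold change of -2.09 (SE 0.46, adjusted p = 0.0188, limma), and the value relative to T-mDCs was -2.12 (SE 0.46, adjusted p = 0.0199), lower in 3 of 3 samples. T-mDCs and N-mDCs differed by 0.03 on the log2 scale, with a 95% interval of -1.02 to 1.08. The first call was lost without N-mDC sample 1, N-mDC sample 3 or T-DC sample 2, and the other without T-DC sample 2, T-mDC sample 2 or T-mDC sample 3 or with only the groups compared. Over all samples left out in turn, the log2 fold changes were -2.55 to -1.65 and -2.58 to -1.68 (adjusted p up to 0.0711 and 0.0891, limma). With T-mDC samples 2 and 3 taken as 1 sample, the difference from T-mDCs was -2.003 (adjusted p = 0.0879, limma).

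Kit is also known from mast cells and progenitors. A list of 8 mast cell and basophil genes summed to 2.91 to 15.5 FPKM over the N-mDC samples, 0.344 to 8.91 over the T-DC samples and 0.176 to 0.492 over the T-mDC samples, and Ms4a2, which encodes a chain of the high affinity IgE receptor, was at 0 in N-mDC sample 1, T-DC sample 1 and all T-mDC samples. Of 8 progenitor genes, only Lmo2 and Myb passed the filter, and Cd34 was 0.301 to 1.02 FPKM across the 9 samples. Lmo2, which red cell precursors also express, was 195 and 151 FPKM in T-DC samples 2 and 3 and 21.5 to 47.1 in the other samples. Myb, a transcription factor of progenitors, was 0.638, 7.90 and 10.7 FPKM in T-DC samples 1 to 3 and 1.14 to 3.60 in mature DCs. The progenitor list summed to 34.4, 205 and 166 in T-DC samples 1 to 3, 48.5 to 50.4 in N-mDCs and 24.9 to 29.1 in T-mDCs. Lmo2 made up most of this sum in every sample, and the part of the list in the level of Kit was not tested.

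**Figure D2:**
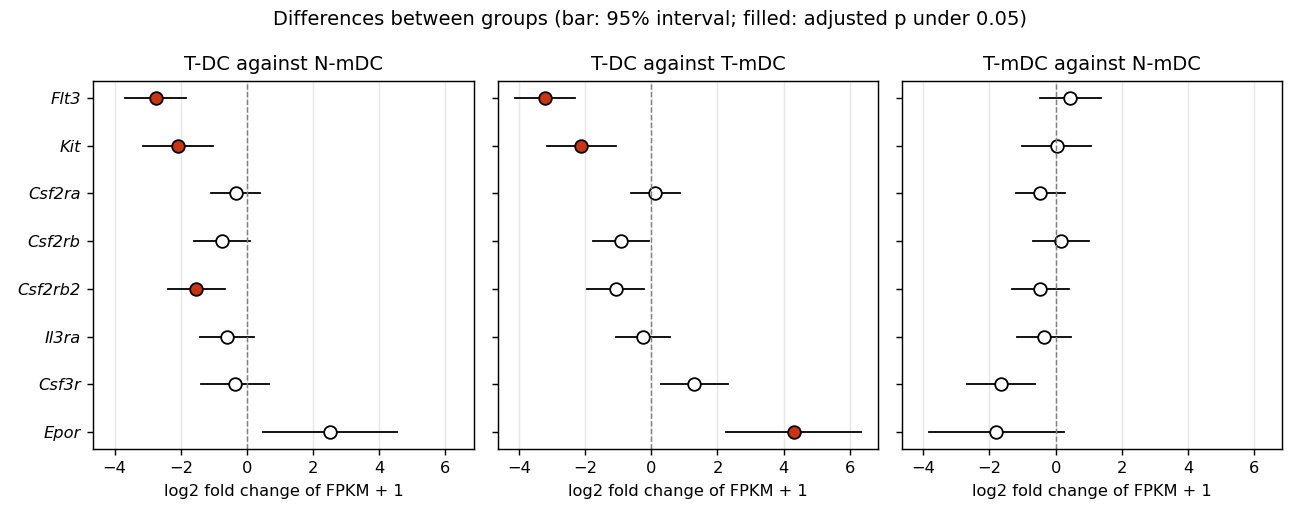
Log2 fold change of FPKM + 1 (horizontal axis) of each receptor in the 3 comparisons, with bars for the 95% interval of the limma fit and filled points for an adjusted p under 0.05. Flt3 and Kit lie to the left of 0 in both comparisons of T-DCs, Epor lies farthest to the right of 0 in both with the widest intervals, and no point is filled between T-mDCs and N-mDCs.

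Csf2ra (ENSMUSG00000059326, chr19:61224402-61228418, minus strand) encodes the alpha chain that gives the GM-CSF receptor its specificity. It had the highest FPKM of the 8 receptors in all samples but T-DC sample 3, where Epor was higher. Its values were 227, 206 and 232 FPKM in samples 1 to 3 of N-mDCs, 299, 163 and 109 in those of T-DCs, and 177, 149 and 157 in those of T-mDCs. T-DC samples covered a wider range than both mature groups together, with sample 1 above and sample 3 below all 6 mature DC samples. The group means of N-mDC, T-DC and T-mDC samples were 222 ± 13.9, 190 ± 98.0 and 161 ± 14.6 FPKM (SD, n = 3). T-DCs differed from N-mDCs by -0.34 on the log2 scale, with a 95% interval of -1.08 to 0.40 (adjusted p = 0.487, limma), and from T-mDCs by 0.12, with an interval of -0.62 to 0.86 (adjusted p = 0.827). Both values depended on T-DC samples 1 and 3. Without sample 1 they were -0.73 and -0.27 (adjusted p = 0.0249 and 0.351, limma), without sample 3 they were -0.0058 and 0.46 (adjusted p = 0.992 and 0.342), and with sample 1 as the only T-DC sample they were 0.43 and 0.90 (adjusted p = 0.220 and 0.0487). The sign of the value against T-mDCs also turned with TPM (-0.21) and with quantile normalization (-0.15).

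Csf2rb and Csf2rb2 encode the beta chains that carry the signal of the alpha chains. Csf2rb makes the common beta chain of the GM-CSF, IL-3 and IL-5 receptors, and Csf2rb2 makes a beta chain used only for IL-3 in mouse. The genes are neighbours on chromosome 15, at chr15:78325752-78353847 on the plus strand for Csf2rb (ENSMUSG00000071713) and at chr15:78282507-78305721 on the minus strand for Csf2rb2 (ENSMUSG00000071714). Their coding sequences of 2688 and 2634 bases were 95.2% identical over 2628 aligned bases, and the longest identical run was 242 bases. Of all 100-base windows of the Csf2rb transcript, 7.16% were also found unchanged in the Csf2rb2 transcript, and 7.2% of those of Csf2rb2 in Csf2rb. For Csf2rb this share was 18.9% with windows of 50 bases and 3.58% with windows of 150 bases. Reads from shared windows cannot be told apart. The read length, and how the counting divided such reads, were not given in the sources used here. The stretch of 90 bases of exon 4 below shows where reads can be told apart, with the 16 bases that differ between the genes in capitals (mm10, chr15:78338897-78338986 on the plus strand for Csf2rb and chr15:78294345-78294434 on the minus strand for Csf2rb2, from the GENCODE transcripts, 5′ to 3′).
Csf2rb: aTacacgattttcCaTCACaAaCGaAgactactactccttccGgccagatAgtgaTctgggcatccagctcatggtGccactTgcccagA
Csf2rb2: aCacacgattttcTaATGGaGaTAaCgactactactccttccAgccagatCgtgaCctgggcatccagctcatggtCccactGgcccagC

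Csf2rb was listed at 54.4, 29.0 and 47.3 FPKM in samples 1 to 3 of N-mDCs, at 40.2, 26.2 and 13.6 in those of T-DCs, and at 46.2, 47.2 and 48.1 in those of T-mDCs. T-DCs lay below all T-mDC samples and overlapped with N-mDCs. T-DCs differed from N-mDCs on the log2 scale by -0.76 (95% interval -1.61 to 0.09, adjusted p = 0.178, limma) and from T-mDCs by -0.92 (interval -1.77 to -0.07, adjusted p = 0.138). T-DC sample 1 was the nearest to mature DCs, and without it the values were -1.11 and -1.27 (adjusted p = 0.0276 and 0.0184, limma). Without T-DC sample 3, the lowest, they were -0.36 and -0.52 (adjusted p = 0.458 and 0.333).

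Csf2rb2 was lower than Csf2rb in each of the 9 samples. Its values were 30.9, 19.2 and 36.0 FPKM in samples 1 to 3 of N-mDCs, 14.5, 10.2 and 4.57 in those of T-DCs, and 23.4, 18.9 and 17.7 in those of T-mDCs. T-DCs were lower than all mature DC samples, and T-mDCs overlapped with N-mDCs. Compared with N-mDCs, T-DCs had a log2 fold change of -1.54 (SE 0.38, adjusted p = 0.0281, limma), and the value relative to T-mDCs was -1.08 (SE 0.38, adjusted p = 0.0929), lower in 3 of 3 samples. The call against N-mDCs was kept in 11 of 20 alternative settings. It was lost without N-mDC sample 1, N-mDC sample 3, T-DC sample 2, T-DC sample 3 or T-mDC sample 2, with values from -1.87 to -1.13 over all samples left out in turn (adjusted p up to 0.0947, limma). Without T-DC sample 1, the difference from T-mDCs was -1.40 (adjusted p = 0.0164, limma). The ratio of Csf2rb to Csf2rb2 in FPKM was 1.76, 1.51 and 1.31 in samples 1 to 3 of N-mDCs, 2.77, 2.58 and 2.97 in those of T-DCs, and 1.97, 2.49 and 2.72 in those of T-mDCs, so that both groups from leukemic spleen were above all N-mDC samples and overlapped with each other.

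Il3ra (ENSMUSG00000068758, chr14:14346275-14356011, plus strand) encodes the alpha chain of the IL-3 receptor. It was listed at 12.4, 21.8 and 13.1 FPKM in samples 1 to 3 of N-mDCs, at 14.6, 11.9 and 5.11 in those of T-DCs, and at 12.9, 11.2 and 11.3 in those of T-mDCs. All 3 groups overlapped. On the log2 scale of FPKM + 1, T-DCs differed from N-mDCs by -0.60 (95% interval -1.41 to 0.20, adjusted p = 0.252, limma) and from T-mDCs by -0.25 (interval -1.06 to 0.55, adjusted p = 0.658). The ratio of Csf2ra to Csf2rb, the chains of the GM-CSF receptor, was taken in FPKM, that is per kilobase of gene length. It was 7.44, 6.19 and 8.05 in samples 1 to 3 of T-DCs, 4.18, 7.11 and 4.91 in those of N-mDCs, and 3.84, 3.16 and 3.25 in those of T-mDCs. T-DCs were above all T-mDC samples in this ratio and overlapped with N-mDCs.

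Csf3r (ENSMUSG00000028859, chr4:126024550-126044440, plus strand) encodes the G-CSF receptor of granulocytes and monocytes. Its values were 19.8, 27.6 and 54.6 FPKM in samples 1 to 3 of N-mDCs, 29.8, 28.9 and 16.3 in those of T-DCs, and 16.4, 6.22 and 7.44 in those of T-mDCs. T-mDCs were lower than all N-mDC samples, and T-DCs overlapped with both groups, with T-mDC sample 1 just above T-DC sample 3. Its log2 fold change was 1.30 for T-DCs against T-mDCs (SE 0.45, adjusted p = 0.0890, limma), -0.35 for T-DCs against N-mDCs (adjusted p = 0.609), and -1.65 for T-mDCs against N-mDCs (SE 0.45, adjusted p = 0.112). The last of these was the only one of the 8 receptors with an unadjusted p under 0.05 between the mature groups. Without T-mDC sample 1, T-DCs were called higher than T-mDCs, with a value of 1.69 (adjusted p = 0.0396, limma).

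Csf3r and the neutrophil markers were compared sample by sample. In N-mDC samples 1 to 3 the neutrophil list summed to 80.1, 440 and 737 FPKM, in the order of Csf3r, and in T-mDCs, where samples 2 and 3 had the lowest Csf3r of all, it summed to 11.1 to 17.1. T-DC samples 1 and 2 had nearly the same Csf3r, 29.8 and 28.9 FPKM, while the neutrophil list summed to 16.4 and 4257. S100a8, S100a9, Ngp and Camp made up most of the sum in T-DC sample 2. Cxcr2 was 3.01 FPKM there and 3.09 to 8.29 in N-mDCs, and Mmp9 was 17.1 and 12.9 to 19.8. Against N-mDCs, limma called 0 of 10 neutrophil genes in T-DCs, beside 16.4% of all genes, with a median log2 fold change of 0.45. Genes of early granulocytes, among them Mpo and Elane, summed to 0.844, 219 and 86.1 FPKM over T-DC samples 1 to 3, and Elane was at 0 in T-DC sample 1. A list of 7 monocyte genes, which holds the M-CSF receptor gene Csf1r, summed to 824, 925 and 494 in the same samples, to 338 to 702 in N-mDCs and to 80.8 to 275 in T-mDCs. Csf1r and Chil3 made up most of the sum in T-DCs. Against N-mDCs limma called 0 of the 7 genes higher and 2 lower, beside 6.1% and 10.3% of all genes, with a median log2 fold change of -1.17. Csf1r itself was 609, 281 and 176 FPKM in T-DC samples 1 to 3, 203 to 314 in N-mDCs and 63.3 to 203 in T-mDCs, with a log2 fold change of 1.72 in T-DCs against T-mDCs (adjusted p = 0.0711, limma). The part of neutrophils or monocytes in the level of Csf3r was not tested.

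Epor (ENSMUSG00000006235, chr9:21958897-21963506, minus strand) encodes the erythropoietin receptor, which red cell precursors need to survive. It was listed at 5.18, 13.6 and 6.89 FPKM in samples 1 to 3 of N-mDCs, at 8.67, 104 and 126 in those of T-DCs, and at 3.17, 1.12 and 0.929 in those of T-mDCs. T-DC samples 2 and 3 were far above the other 7 samples. T-DC sample 1 lay within the range of N-mDCs, and T-mDCs were lower than both other groups. Over the N-mDC, T-DC and T-mDC groups, Epor averaged 8.57 ± 4.48, 79.9 ± 62.6 and 1.74 ± 1.24 FPKM (SD, n = 3). Relative to T-mDCs, Epor in T-DCs had a log2 fold change of 4.30 (SE 0.89, adjusted p = 0.0171, limma), higher in 3 of 3 samples, and the value relative to N-mDCs was 2.50 (SE 0.89, adjusted p = 0.0863). T-mDCs against N-mDCs gave -1.80 (95% interval -3.83 to 0.24, adjusted p = 0.354, limma).

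These values depended on which T-DC samples were used. Without T-DC sample 1, the log2 fold change of Epor was 3.70 against N-mDCs (adjusted p = 0.000461, limma) and 5.49 against T-mDCs (adjusted p = 0.000103), and T-mDCs were then called lower than N-mDCs (adjusted p = 0.0327). With T-DC sample 1 as the only T-DC sample, they were 0.11 and 1.91 (adjusted p = 0.925 and 0.0936, limma). The call against T-mDCs was also lost without T-DC sample 2 (3.77), T-DC sample 3 (3.63), T-mDC sample 2 or T-mDC sample 3, with the last 2 taken as 1 sample (4.12), and with only the groups compared (4.30), with an adjusted p up to 0.0756 in these settings (limma).

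Markers of red cell precursors moved with Epor. All 14 erythroid markers were called higher in T-DCs than in T-mDCs, beside 5.44% of all genes. Against N-mDCs, 6 of 14 were called higher, beside 6.1% of all genes. With T-mDC samples 2 and 3 taken as 1 sample these counts were 0 and 1 of 14 (limma), beside 85 and 404 of 12746 genes called higher. Gata1, the main transcription factor of the erythroid lineage, was 1.24, 108 and 124 FPKM in T-DC samples 1 to 3, 0.131 to 1.83 in N-mDCs and 0.0669 to 0.348 in T-mDCs. Klf1, an erythroid transcription factor that controls globin genes, was 3.65, 278 and 348 in T-DC samples 1 to 3 and no higher than 3.09 in mature DCs. N-mDC sample 2, with the highest Epor of its group, also had the highest erythroid sum of its group, 5372. The part of red cell precursors or their RNA in the Epor result was not tested.

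**Figure D3:**
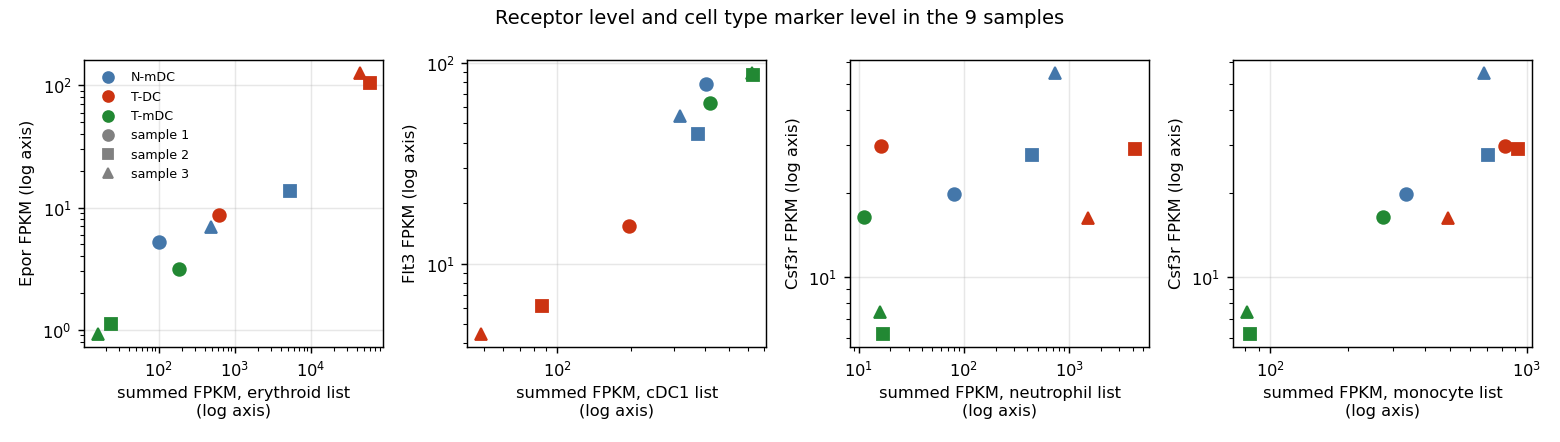
FPKM of a receptor (vertical log axis) against the summed FPKM of a marker list (horizontal log axis) in each of the 9 samples, coloured by group and shaped by sample number. Epor is highest in the samples with the highest erythroid sums and Flt3 is lowest in those with the lowest cDC1 sums, while T-DC samples 1 and 2 have like Csf3r at neutrophil sums of 16.4 and 4257.

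The promoters of Epor and Flt3, the receptors with the largest differences in opposite directions, are shown for the letters that GATA factors bind. The windows are the 250 bases upstream of the RefSeq start (GRCm38.p6, 5′ to 3′ on the strand of the gene), at chr9:21963577-21963826 for Epor and chr5:147400490-147400739 for Flt3, both on the minus strand. Capitals mark a GATA match on either strand, that is GATAA or its variant ending in G, with A or T before it.
Epor: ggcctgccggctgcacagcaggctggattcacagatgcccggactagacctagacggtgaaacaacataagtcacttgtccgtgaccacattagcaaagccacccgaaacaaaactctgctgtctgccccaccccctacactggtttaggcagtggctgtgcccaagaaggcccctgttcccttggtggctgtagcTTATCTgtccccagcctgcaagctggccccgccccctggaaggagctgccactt
Flt3: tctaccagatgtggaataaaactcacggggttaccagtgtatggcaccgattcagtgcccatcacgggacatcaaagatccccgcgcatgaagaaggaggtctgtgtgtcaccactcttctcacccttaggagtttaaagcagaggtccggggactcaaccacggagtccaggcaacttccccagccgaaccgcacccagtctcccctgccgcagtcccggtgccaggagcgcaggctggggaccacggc

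The Epor window held 1 GATA match, 54 bases before the start, and the Flt3 window held none. RefSeq gave windows for 7 of the 8 receptors, with more than 1 for Kit and none for Csf2rb. Counts below are of receptors with a match in any of their windows, and shares are of single windows. A GATA match was found for Epor, Csf2rb2 and Il3ra, that is 3 of 7, beside 26.5% of 32851 windows of the same length in the table. CCNCNCCC, the letters of a CACCC box bound by KLF factors, was found for 7 of 7 receptors beside 45.9% of all windows. GAGGAA, the letters of an ETS site of the PU.1 kind, was found for 4 of 7 beside 23.3%. The motifs were searched on both strands, and overlapping matches of the same motif were counted. A match describes letters only, and says nothing of whether a factor was bound.

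The mix of receptors in each library differed along with these levels. Csf2ra made up 37.4% to 70.4% of the summed FPKM of the 8 receptors. In N-mDCs and T-mDCs it was followed by Flt3, Csf2rb, Kit, Csf2rb2 or Csf3r, and Epor ranked last in all 6 samples with at most 3.58% of the sum. Flt3 was 11.5% to 24.4% of the sum in mature DCs and ranked 2 or 3, and the shares in T-mDC samples 2 and 3 were 24.4% and 24.3%. By the lineages these receptors are known for, the mature DC libraries were led by receptors of DCs and other myeloid cells, namely Csf2ra, Flt3 and Csf2rb, with Csf3r at rank 2 in N-mDC sample 3 alone. These ranks depend on listed gene lengths, such as 1849 bases for Csf2ra and 6176 for Flt3. In reads, Flt3 was above Csf2ra in N-mDC sample 1 and all T-mDC samples, and below it in N-mDC samples 2 and 3. The listed start and end of Csf2ra differed from those in GENCODE.

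T-DC libraries were not alike in this mix. In T-DC sample 1, Csf2ra took 70.4% of the sum and was followed by Csf2rb and Csf3r. Chains of the GM-CSF receptor, used by DCs and other myeloid cells, and the G-CSF receptor of granulocytes and monocytes thus came first. Flt3 was at 3.62% and Epor at 2.04%. The neutrophil list summed to 16.4 FPKM in that sample. A list of 9 genes of red pulp macrophages summed to 3439, 1186 and 701 in T-DC samples 1 to 3. It summed to 2209 to 4422 in N-mDCs and 486 to 1612 in T-mDCs, without a call in any comparison (limma). In T-DC sample 2, Csf2ra (45.6%), Epor (29.3%) and Csf3r (8.12%) led, and Flt3 was at 1.71% and Kit at 1.68%. T-DC sample 3 had Epor first with 43.3%, then Csf2ra with 37.4%, Csf3r with 5.56% and Csf2rb with 4.65%, and Flt3 ranked last with 1.53%. The receptors of samples 2 and 3 were thus those of the myeloid and the erythroid lineage. The ratio of Epor to Flt3 in FPKM was 0.564, 17.1 and 28.2 in T-DC samples 1 to 3, and 0.0104 to 0.307 in the 6 mature DC samples. The share of Flt3 was lower in each T-DC sample than in any mature DC sample. The lineage of a receptor is background knowledge, and which cells held these transcripts was not measured here.

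**Figure D4:**
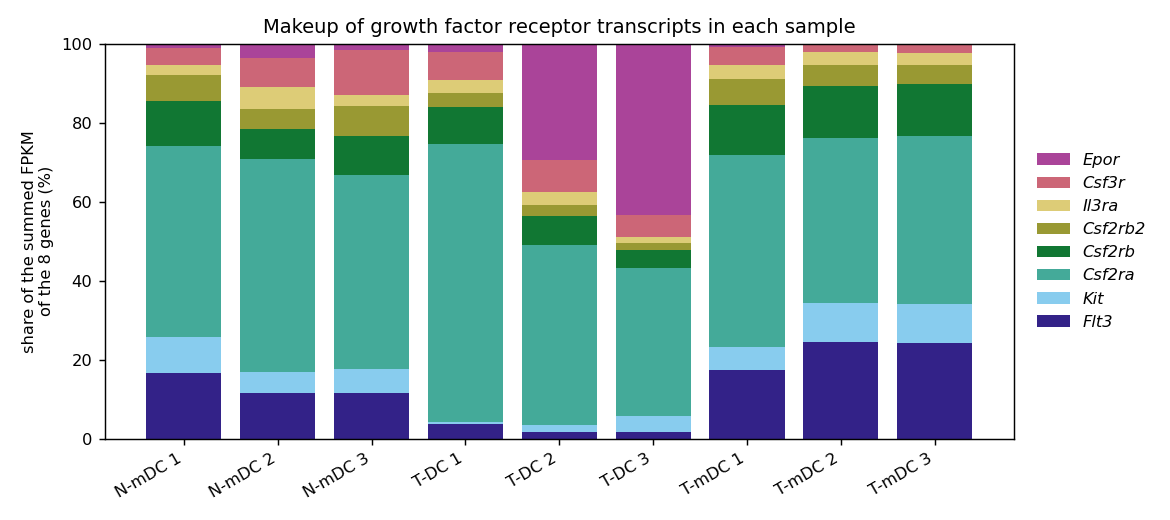
Share of each receptor in the summed FPKM of the 8 receptors (vertical axis, percent), stacked for each of the 9 samples. Flt3 and Kit fill the foot of the bars in mature DCs and little of those in T-DCs, and Epor takes 29.3% and 43.3% in T-DC samples 2 and 3.

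The other genes of receptor signalling were counted over a list of 59 genes, of which 49 passed the filter. Against N-mDCs, T-DCs expressed higher levels of 4 of these and lower levels of 8, and the median log2 fold change of the 49 was -0.25. Against T-mDCs, 2 were higher and 6 lower, with a median of -0.07, and between T-mDCs and N-mDCs 1 gene, Csf1, was lower. These counts stand beside 16.4%, 14.2% and 2.21% of all genes called in the same comparisons. With T-mDC samples 2 and 3 taken as 1 sample, 1 gene was called higher and 4 lower against N-mDCs, 0 higher and 2 lower against T-mDCs, and 0 between the mature groups (limma). Calls against T-mDCs were then lost for Jak2 (-1.83), Tyk2 (-1.16), Gab1 (1.58), Socs1 (-1.07), Il6st (-1.55) and Id1 (0.98), with adjusted p from 0.0575 to 0.185. Calls against N-mDCs were lost for Jak2, Shc1, Gab1, Socs1, Socs2, Socs3 and Il2rg in T-DCs and for Csf1 in T-mDCs (-1.39, adjusted p = 0.164).

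Among 9 other cytokine receptor chains, 7 were tested. Il7r, which encodes the IL-7 receptor alpha chain, was 5.19 ± 1.45, 1.50 ± 0.776 and 8.99 ± 0.168 FPKM over the N-mDC, T-DC and T-mDC groups (SD, n = 3). It was lower in T-DCs than in both mature groups, with log2 fold changes of -1.33 and -2.05 (adjusted p = 0.0119 and 0.00256, limma), without overlap and in every setting that left out a sample. Il6st, which encodes the shared signal chain gp130 of the IL-6 family, was 19.7 ± 6.66, 4.68 ± 3.30 and 14.5 ± 1.60 FPKM, with values of -1.96 and -1.59 (adjusted p = 0.0139 and 0.0322, limma). Il4ra, the IL-4 receptor alpha chain, and Il2rg, the common gamma chain, were lower in T-DCs relative to N-mDCs, with log2 fold changes of -1.78 and -1.19 (adjusted p = 0.0139 and 0.0306, limma). The call of Il4ra was lost without N-mDC sample 1 or 3, that of Il6st against N-mDCs without either of these or T-DC sample 2, that of Il6st against T-mDCs in 6 of 9 settings that left out a sample, and that of Il2rg in 5 of 9. In these settings the values ran from -2.14 to -1.35 for Il4ra, -2.40 to -1.63 and -2.04 to -1.26 for Il6st and -1.39 to -0.81 for Il2rg.

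Ligands of the receptors were low in all sorted cells. Epo and Thpo were listed at 0 in all 9 samples, Csf2 was above 0 in N-mDC sample 3 alone (0.344 FPKM), and Il3 in a single T-DC sample (0.209 FPKM). Of 10 ligands, 3 were tested, and Flt3l was 1.03 to 2.81 FPKM across the 9 samples without a call. Csf1, the ligand of the M-CSF receptor, was 4.06 ± 1.93, 0.705 ± 0.374 and 0.894 ± 0.140 FPKM over the same groups (SD, n = 3). It was lower than in N-mDCs in T-DCs (-1.53, adjusted p = 0.00850, limma) and in T-mDCs (-1.36, adjusted p = 0.0450). The call in T-DCs was kept whichever sample was left out, and that in T-mDCs was lost in 8 of 9 such settings, with values of -1.52 to -1.06.

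Of 19 kinases and adaptors, Jak2 and Tyk2 were lower and Shc1, Gab1 and Ptpn11 were higher in T-DCs in at least 1 comparison. Jak2, the kinase bound by most of these receptors, was 86.4 ± 36.0, 33.8 ± 5.52 and 135 ± 34.4 FPKM over the N-mDC, T-DC and T-mDC groups (SD, n = 3). T-DCs differed from N-mDCs by -1.24 and from T-mDCs by -1.95 on the log2 scale (adjusted p = 0.0487 and 0.0105, limma). The first of these calls was lost in 7 of 9 settings that left out a sample (values -1.65 to -1.01), and the other without T-mDC sample 2 or 3 (up to -1.83). Ptpn11, which encodes the phosphatase SHP2 that passes on receptor signals, was higher than in N-mDCs by 0.85 (adjusted p = 0.0201, limma) and was called whichever sample was left out, though not with TPM (0.77), quantile normalization (0.69) or only the groups compared (0.85). The adaptor gene Gab1 was 1.43 to 5.18 FPKM in T-DCs against 0.440 to 0.856 in N-mDCs and 0.118 to 0.521 in T-mDCs, with values of 1.23 and 1.65 (adjusted p = 0.0349 and 0.0129, limma). The call of Gab1 against N-mDCs was lost in 7 of 9 settings that left out a sample (values 0.90 to 1.57), and that against T-mDCs without T-mDC sample 2 or 3 (values 1.32 to 1.99 over the 9 settings). Tyk2 against T-mDCs (-1.23, adjusted p = 0.0178, limma) was lost in 4 of 9, with values of -1.45 to -1.08, and the adaptor gene Shc1 against N-mDCs (0.64, adjusted p = 0.0436) in 8 of 9, with values of 0.52 to 0.74. Stat5a and Stat5b, the main STATs of these receptors, were not called in either comparison, with log2 fold changes in T-DCs of -0.13 and 0.40 (N-mDCs as the reference) and -0.72 and 0.37 (T-mDCs as the reference).

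Among 11 inhibitors of receptor signalling, Socs2 fell furthest. It was 7.21, 1.79 and 3.37 FPKM in samples 1 to 3 of N-mDCs, 0.943, 0.413 and 0.525 in those of T-DCs, and 8.44 to 17.1 in those of T-mDCs. All T-DC samples were below all mature DC samples. T-DCs differed from T-mDCs by -3.17 on the log2 scale (SE 0.41, adjusted p = 0.00257, limma), kept in 20 of 20 alternative settings, and from N-mDCs by -1.53 (adjusted p = 0.0364), kept in 8 of 20, with values of -1.90 to -1.12 when a sample was left out. Socs1 was lower in both comparisons (-0.88 and -1.13, adjusted p = 0.0408 and 0.0196, limma), lost in 7 and 3 of 9 settings that left out a sample, with values of -1.12 to -0.69 and -1.36 to -0.93. Socs3 was higher than in N-mDCs (1.34, adjusted p = 0.0436, limma), lost in 6 of 9 such settings, with values of 0.94 to 1.66.

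Of 10 genes known as STAT5 targets, 9 were tested, and Id1 was the only one called, higher in T-DCs than in T-mDCs (1.16, adjusted p = 0.0493, limma) and lost in 8 of 9 settings that left out a sample (values 0.95 to 1.52). Some genes known to be switched on by erythropoietin had high values in T-DC samples 2 and 3 alone, without a call. Erfe, the hormone gene of red cell precursors that acts on iron supply, was 0.456, 58.6 and 59.6 FPKM in T-DC samples 1 to 3 and no higher than 0.243 in mature DCs, and it was under the filter because only 2 samples reached an FPKM of 1. Bcl2l1, a survival gene, was 7.15, 92.3 and 32.9 in T-DC samples 1 to 3 against 4.48 to 8.61 in mature DCs (log2 fold changes 2.12 and 1.91, adjusted p = 0.0806 and 0.123, limma). Cish, an inhibitor induced by STAT5, was 0.252, 13.6 and 8.49 against 0.127 to 1.03 in mature DCs (1.71 and 2.26, adjusted p = 0.150 and 0.0847, limma). Erfe, Bcl2l1 and Cish were each low in T-DC sample 1, as Epor was. Over the tested STAT5 targets, the median log2 fold change in T-DCs was -0.27 (N-mDCs as the reference) and 0.39 (T-mDCs as the reference). With N-mDCs as the reference, Pim1, Pim2, Mcl1, Osm, Id2 and Myc had negative log2 fold changes, and Bcl2l1, Ccnd2 and Id1 positive ones. Pim1 was 230 to 426 FPKM in T-DCs and 472 to 564 in N-mDCs. Unlike Cish, Socs2 was lowest in T-DC samples 2 and 3, at 0.413 and 0.525 FPKM. Erythropoietin signalling itself was not tested.

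**Figure D5:**
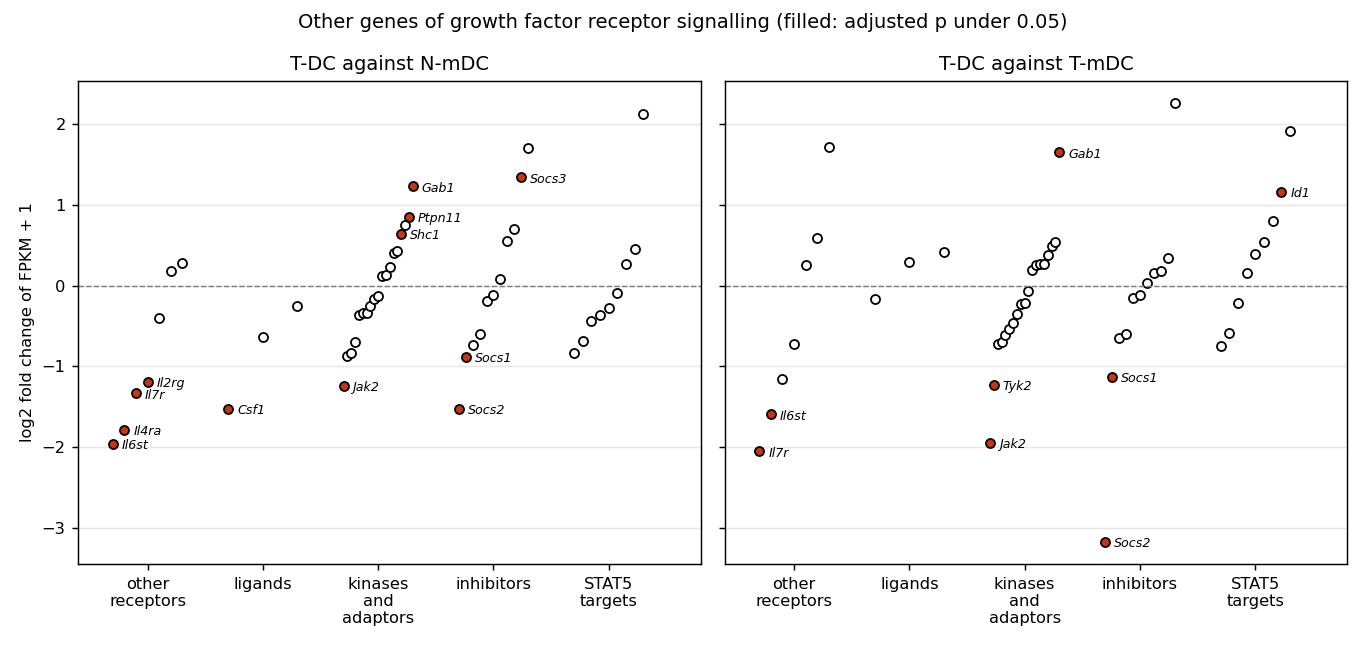
Log2 fold change of FPKM + 1 (vertical axis) of the 49 tested genes of receptor signalling in T-DCs against N-mDCs and against T-mDCs, in 5 classes (horizontal axis), with filled, named points for an adjusted p under 0.05. Socs2 lies lowest against T-mDCs at -3.17, and Jak2, Il7r, Il6st and Socs1 lie below 0 and are filled in both comparisons.

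The genes nearest in pattern to each receptor were found by the root mean square difference of centred log2(FPKM + 1) over the 9 samples, where 0 would be the same pattern. This is a description, since the points share libraries and groups. Flt3 was nearest to Dnase1l3 (0.186), an endonuclease gene of DCs and macrophages, Relb (0.203), an NF-kB subunit gene, and Clec9a (0.216), a cDC1 receptor gene, where Flt3 itself varied around its mean by 1.49. Kit was nearest to Tnfrsf4 (0.296), Hsh2d (0.350) and Zbtb46 (0.376). Epor varied most, by 2.06, and was nearest to Fam213a (0.470), Blvrb (0.484), an enzyme gene of heme breakdown abundant in red cells, and Arhgap23 (0.502). The genes near Csf3r included Selenon (0.227) and Ets1 (0.253). Csf2rb2 was nearest to Pvr (0.182), Il4ra (0.218) and Ceacam16 (0.238). Csf2ra, Csf2rb and Il3ra varied least, by 0.402, 0.580 and 0.466, and the nearest genes were Clcf1, Fli1 and Nfatc1 for Csf2ra, Fam49a, Crybg1 and Pdxk for Csf2rb, and Card19, Hexa and Ctsz for Il3ra.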

How the data were processed

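RNA-seq covered 9 samples, 3 in each of the N-mDC, T-DC and T-mDC groups. The authors deposited FPKM for 54532 genes with gene coordinates and lengths, on build mm10 per the labels. The aligner, counter, annotation and filter were not given in the sources used here. Multiplying each FPKM by its gene length returned whole reads to within 5.59e-05 of a read, with between 15360815 and 18440913 reads on genes per library.

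Genes that reached an FPKM of 1 in 3 or more samples, 12746 in all, were tested as log2(FPKM + 1), a scale that understates changes of low genes. One linear model of the 9 samples was made with limma 3.58.1 under R 4.3.3 (eBayes with trend, Benjamini-Hochberg adjustment, threshold 0.05), and the fit was tested on simulated data. Groups were taken from the sample labels. Named genes are the 8 receptors, the genes of a pathway list that were called or are needed for a role, the 3 genes nearest to each receptor and fixed markers of other cell types, and a few genes under these rules are not reported here. The receptors and the lists were chosen with earlier results of these data known. Alternatives were a pseudocount of 0.1, no filter, an FPKM of at least 5, TPM, quantile normalization, limma voom on recovered reads with TMM scaling, only the groups compared, array weights, a replicate block, each sample left out, T-mDC samples 2 and 3 as 1 sample, and T-DC sample 1 as the only T-DC sample. Promoters came from RefSeq and beta chain transcripts from GENCODE (both GRCm38), and the coding sequences were aligned with Biopython 1.88.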

Additional observations from a re-analysis of the deposited data

How the results depend on the processing

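Of 8 receptors, 3 were called between T-DCs and N-mDCs, 3 between T-DCs and T-mDCs, 0 between the mature groups and 4 by the F-test. Array weights gave 6, 6, 4 and 7 in this order, but in that fit T-DC sample 2 had a weight of 46.6 and the others 0.0872 to 3.28, and the estimate of the weights gave a warning. With only the groups compared, 1 was called against T-mDCs. With T-mDC samples 2 and 3 as 1 sample, 1 was called against T-mDCs and 1 by the F-test, and without a filter 1 by the F-test. Leaving out a sample gave 1 to 6, 1 to 5, 0 to 1 and 1 to 7.

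Over all genes, the counts were 2096, 1813, 282 and 2295 in the same order. Only the groups compared gave 1070, 1036 and 850 in the 3 comparisons, array weights gave 8485, 9923, 3841 and 10959, T-mDC samples 2 and 3 as 1 sample gave 1394, 540, 23 and 1076, and T-DC sample 1 as the only T-DC sample gave 746, 741, 849 and 1472. An FPKM of at least 5 gave 1190, 111 and 1473 from the second comparison on, and a pseudocount of 0.1 gave 107 between T-mDCs and N-mDCs. Leaving out a sample gave 980 to 5030, 541 to 4475, 23 to 1022 and 1069 to 5374. With TPM the median log2 fold change of all genes moved from 0.07 to -0.23 for T-DCs against T-mDCs and from 0.03 to 0.21 for T-mDCs against N-mDCs, and the share of calls that were higher moved from 38.2% to 22.2% and from 31.2% to 46.8%. With no filter that share was 27% in the comparison with N-mDCs and 24.3% in that with T-mDCs, and with only the groups compared it was 24.4%, 24.3% and 42.6%.

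The replicate block, fitted because labels share sample numbers, gave 2 receptors by the F-test and 1378, 78 and 1337 genes for T-DCs against N-mDCs, T-mDCs against N-mDCs and the F-test. Same-numbered samples correlated from -0.475 to 0.269, over 0.1 in 2 of 9 pairs. With so few samples, centred within each group, these values cannot decide whether the numbers pair the samples, which is not known.

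The direction turned for 6 small differences, none of them called with all samples. Kit in T-mDCs against N-mDCs went to -0.032 with array weights, -0.24 without N-mDC sample 2, -0.082 and -0.085 without T-mDC sample 2 or 3 and -0.083 with both as 1 sample, and ran from -0.24 to 0.30 over the samples left out. Csf2ra in T-DCs went to 0.43 against N-mDCs with T-DC sample 1 alone, and against T-mDCs to -0.21 with TPM, -0.15 with quantile normalization and -0.27 without T-DC sample 1 (-0.27 to 0.46 over the samples left out). Csf2rb in T-mDCs against N-mDCs went to -0.035 with array weights and -0.10 without N-mDC sample 2 (-0.10 to 0.34), and Csf3r in T-DCs against N-mDCs to 0.044 without N-mDC sample 3 (-0.66 to 0.044). Il3ra in T-DCs against T-mDCs went to 0.062 with array weights, 0.15 without T-DC sample 3 (-0.53 to 0.15) and 0.29 with T-DC sample 1 alone. The cause of these changes was not tested. Of the 893 values of single genes under alternatives, 676 kept direction and side of the threshold, 184 lost a call, 18 gained a call and 15 turned direction. Epor in T-mDCs rested on the fewest reads of the receptor values, 34 to 119 a sample. Epor in T-DCs had the largest ratio of highest to lowest sample, 14.6.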
